A study of Mus musculus with 44 samples.

Results

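The nuclear genes of the respiratory chain were taken as every row whose symbol begins with Nduf followed by a, b, c, s or v and a number, is Sdha, Sdhb, Sdhc or Sdhd, begins with Uqcr, begins with Cox4 to Cox8, or begins with Atp5, leaving out rows marked as pseudogenes by -ps. The rule found 83 genes among the 22674 genes of the table of the maturation window and 82 among the 18274 genes of the table of the ovulation window, where Ndufs6b had no row. By symbol, 39 belong to complex I, 4 to complex II, 8 to complex III, 15 to complex IV and 17 to complex V. The libraries are poly(A)-selected RNA-seq of ovarian follicles from wild-type CD-1 mice, an outbred stock. In the maturation window, 11 control libraries labelled DMSO were compared with 10 labelled PFNA. In the ovulation window, 12 libraries of follicles given hCG were compared with 11 given hCG and PFNA, so that every ovulation library had received hCG. PFNA is perfluorononanoic acid, a long-chain perfluoroalkyl acid, and hCG is human chorionic gonadotropin, which stands in for the luteinizing hormone surge. The comparisons ask what PFNA did to follicle transcripts during follicle maturation and during ovulation. The dose, the exposure time, the number of follicles per library and whether libraries came from separate animals or cultures are not given in the sources used here, so the p-values measure only the spread between these libraries.

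The respiratory chain lies in the inner mitochondrial membrane. Complex I takes electrons from NADH and complex II takes them from succinate, both pass them to ubiquinone, complex III passes them on to cytochrome c, and complex IV hands them to oxygen. Complexes I, III and IV pump protons, and complex V, the ATP synthase, lets them flow back and makes ATP. Most subunits are encoded in the nucleus and measured here, while a few core subunits of complexes I, III, IV and V are encoded in mitochondrial DNA. In the follicle, granulosa cells surround the oocyte, which depends largely on oxidative phosphorylation of pyruvate that they supply.

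Values of the maturation window were taken as TPM (transcript shares of a fixed total), a measure that is scaled to transcript length and carries no depth. Values of the ovulation window were estimated counts, 10600930 to 19511530 per library, given below as CPM (counts scaled to library size with the TMM method) and not scaled to length. The tables were normalized separately and drew on different gene models, since only 8 of the 82 genes in both had the same start and end, so levels are compared within a window only. Oocyte markers summed to 228 to 374 TPM in the controls and 8.98 to 531 TPM in the PFNA libraries, and all 16 of 16 tested were lower in the maturation window (median log2 fold change -2.58). PFNA replicates 1, 2 and 10 of that window were at 227, 191 and 531 TPM, and the other 7 at 8.98 to 26.2 TPM. Of 17 oocyte markers tested in the ovulation window, 10 were higher and 0 lower, and PFNA replicate 5, at 22.1 CPM, lay below every other library. Granulosa markers summed to 47447 to 71942 TPM in the controls and 17654 to 54634 TPM in the PFNA libraries in the maturation window, where 0 of 14 were higher and 8 lower. They summed to 17134 to 23609 CPM in the controls and 17989 to 25849 CPM in the PFNA libraries in the ovulation window, where 11 of 14 were higher and 2 lower. Smooth muscle markers had 1 of 4 tested higher and 0 lower in the maturation window, summing to 12.2 to 111 TPM in the controls and 38.4 to 172 TPM in the PFNA libraries. They had 5 of 6 higher and 0 lower in the ovulation window, summing to 24.6 to 144 CPM in the controls and 159 to 951 CPM in the PFNA libraries. Theca markers had 2 of 10 higher and 1 lower, then 5 of 11 higher and 3 lower. Endothelium markers had 0 of 7 called, then 7 of 10 higher and 0 lower. Immune markers had 1 of 3 higher and 0 lower, then 3 of 8 higher and 0 lower, where Cd3e, with averages of 0.192 and 275 CPM, far exceeded the pan-leukocyte marker Ptprc, with 1.09 and 2.16 CPM, in the PFNA libraries. Cd3e reached at most 0.507 CPM in any control and passed the count filter through the PFNA libraries, so a difference was built into its selection. No red blood cell marker was tested in either window, and those listed summed to at most 1.55 TPM and 12.7 CPM in any library. Of all genes tested, 13.3% were higher and 16.1% lower in the maturation window, and 38.0% and 35.2% in the ovulation window. The ovulation shares of theca markers (45.5% higher, 27.3% lower) and the share of immune markers called higher (37.5%) were near these. In these bulk libraries, fewer cells of a type and less RNA per cell cannot be told apart.

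In the maturation window, follicles given PFNA had lower levels of transcripts of all 5 complexes. Of the 83 members, all of which passed the filter of a mean of at least 1 TPM, 42 fell (50.6%, against 16.1% of all 13712 genes tested), 1 rose (1.2%, against 13.3%), and 40 were not called. Calls are limma adjusted p-values under 0.05, with the Benjamini-Hochberg adjustment over all genes tested. The log2 fold change, on the log2(TPM + 1) scale, was below 0 for 82 of the 83 members. Its median over the members was -0.25, against 0.02 over all genes tested. The members together summed to 11762 ± 641 TPM (SD, n = 11) in the controls and 9987 ± 1008 TPM (SD, n = 10) in the PFNA libraries, and 8 of the 10 PFNA libraries lay below every control.

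By complex, 15 of 39 members of complex I, 2 of 4 of complex II, 5 of 8 of complex III, 7 of 15 of complex IV and 13 of 17 of complex V fell, against 16.1% of all genes tested. The 1 that rose, Cox6a2, belongs to complex IV and passed the filter through the PFNA libraries alone. The median log2 fold change was -0.24, -0.16, -0.18, -0.25 and -0.28 for complexes I to V. The ratio of summed TPM, PFNA over control, was 0.799, 0.888, 0.833, 0.868 and 0.873 in the same order. Without Ndufa4l2, the most abundant member of complex I, its ratio was 0.848.

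Nuclear copies of mitochondrial genes moved the other way in these libraries. The maturation table has no row on the mitochondrial chromosome, and 14 nuclear genes whose transcripts match mitochondrial transcripts took 18.1% to 23.5% of all TPM in the controls and 21.2% to 27.7% in the PFNA libraries. Of 13 tested, 10 rose and 0 fell (median 0.34), led by Gm13339, a copy of mt-Nd2, with a log2 fold change of 0.74 ± 0.07 (SE, adjusted p = 4.5e-07). Reads from these copies and from the mitochondrial genome itself cannot be told apart, and the ovulation table has none of these rows. TPM are parts of a fixed total, so a larger share of these copies leaves less for all other genes. With the libraries rescaled without them, 29 members fell and 1 rose (median -0.17), while among all genes the calls went from 1824 higher and 2206 lower to 3021 higher and 1706 lower.

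With the oocyte marker share of each library as a covariate, 2 members remained called, Atp5a1 and Cox7b, both lower. The median over the members was then -0.18, and the calls among all genes fell to 2.03% higher and 2.44% lower. The covariate is largely confounded with PFNA, since all PFNA libraries but replicates 1, 2 and 10 lay far below every control in oocyte markers. This fit can hardly tell the oocyte share from PFNA, so the lost calls name no cause. Without PFNA replicates 1, 2 and 10, which held oocyte markers, 47 members fell and 1 rose, while 19.7% of all genes tested fell and 15.8% rose. With replicate number as a block, 24 members fell and 1 rose, while 13.5% of all genes tested fell and 7.55% rose. The calls lost with the block are listed with the processing alternatives below and not beside each member.

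In the ovulation window the same genes moved in both directions. Of 82 members, 81 passed the count filter. Of these, 22 rose (27.2%, against 38.0% of all 13441 genes tested) and 22 fell (27.2%, against 35.2%), so that neither share exceeded the background of a window in which most genes were called. Calls are adjusted p-values under 0.05 in edgeR's quasi-likelihood test. The median log2 fold change was -0.03, against 0.04 over all genes tested, and the members together summed to 5505 ± 305 CPM (SD, n = 12) in the controls and 5443 ± 217 CPM (SD, n = 11) in the PFNA libraries.

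In the ovulation window complex III had calls in 1 direction and the other complexes in both. Of all genes tested there, 38.0% were higher and 35.2% lower. With few genes per complex, the counts below are not read as a result about a complex. In complex I, 13 members rose and 9 fell of 38. In complex II, Sdha and Sdhc rose and Sdhd fell. In complex III, 0 rose and 3 fell of 8. In complex IV, 5 rose and 3 fell of 14, and in complex V, 2 rose and 6 fell of 17. The ratios of summed CPM for complexes I to V were 1.04, 1.19, 0.873, 1.1 and 0.935. The ratio of complex II rested on Sdha, its most abundant member by CPM, and was 0.933 without it. Whether the complexes differed from each other or from all genes was not tested.

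**Figure D1:**
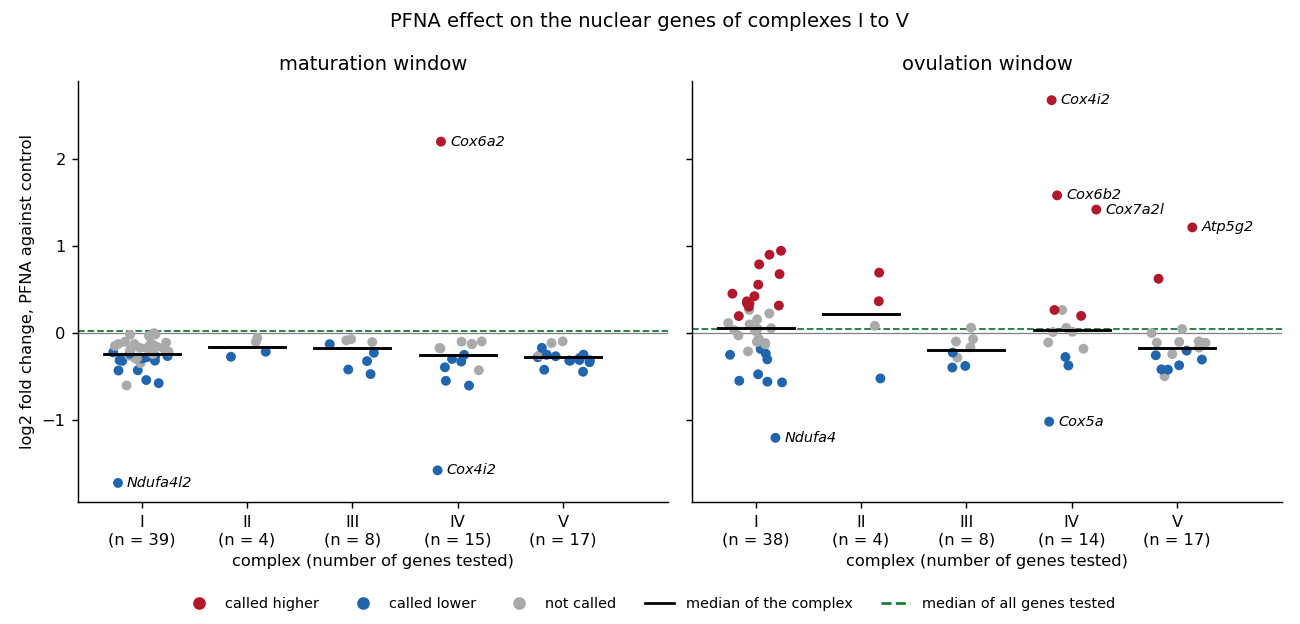
Log2 fold change (PFNA against control, y axis) of every tested member, by complex (x axis), in the maturation window (left) and the ovulation window (right). Points are genes, red where called higher, blue where called lower and grey where not called, black lines are the median of each complex and the dashed line is the median of all genes tested. All maturation medians lie below 0, from -0.28 to -0.16, and in the ovulation window they lie from -0.20 to 0.22.

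**Figure D2:**
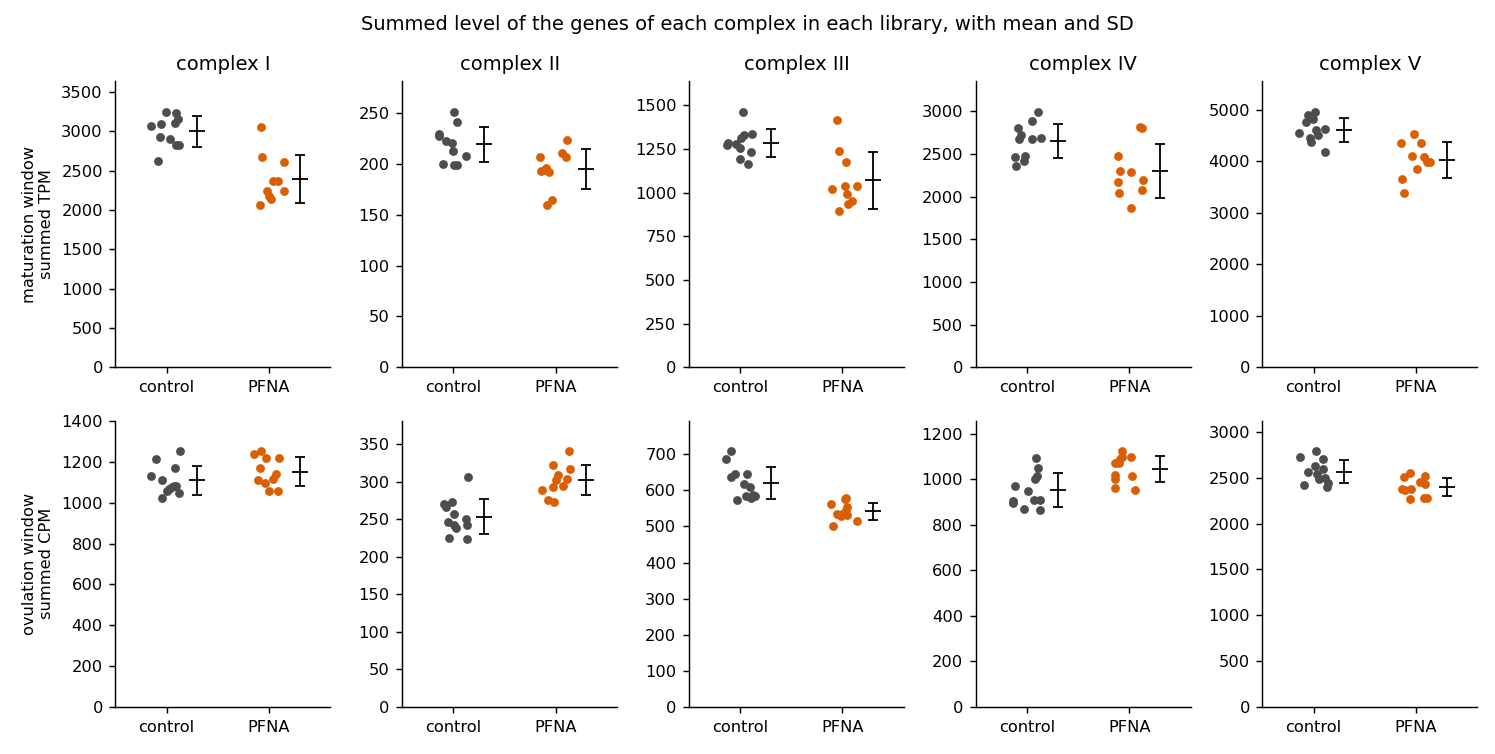
Summed level of the members of each complex (columns) in each library, in TPM in the maturation window (upper row) and CPM in the ovulation window (lower row). Points are libraries, grey for controls and orange for PFNA, and bars are the mean and SD. In the maturation window 6 to 8 of the 10 PFNA libraries lie below every control in each complex, and in the ovulation window 9 of 11 do so for complex III.

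The effect of PFNA differed between the windows for 41 of 81 members tested in both, by a test of the difference between the windows' log2 fold changes. It was higher in the ovulation window for 34 (42.0%, against 32.0% of all 11198 genes tested) and lower for 7 (8.6%, against 35.6%). Of the 82 members in both tables, 81 were tested in both, and their joint calls are set beside those of all 11215 genes tested in both. Of the 81, 8 fell in the maturation window and rose in the ovulation window (9.88%, against 7.62% of all genes): Atp5c1, Atp5g2, Cox4i2, Cox6b2, Ndufa4l2, Ndufa6, Ndufa7 and Ndufc1. Another 15 fell in both windows (18.5%, against 6.0%), and 19 fell in the maturation window without a call in the ovulation window (23.5%, against 4.23%). Without a call in the maturation window, 14 rose (17.3%, against 22.2%) and 7 fell (8.64%, against 26.9%) in the ovulation window. With the maturation libraries rescaled without the mitochondrial-like copies, the effect was higher for 28 members and lower for 9. Of all genes tested, it was then higher for 28.8% and lower for 39.4%.

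**Figure D3:**
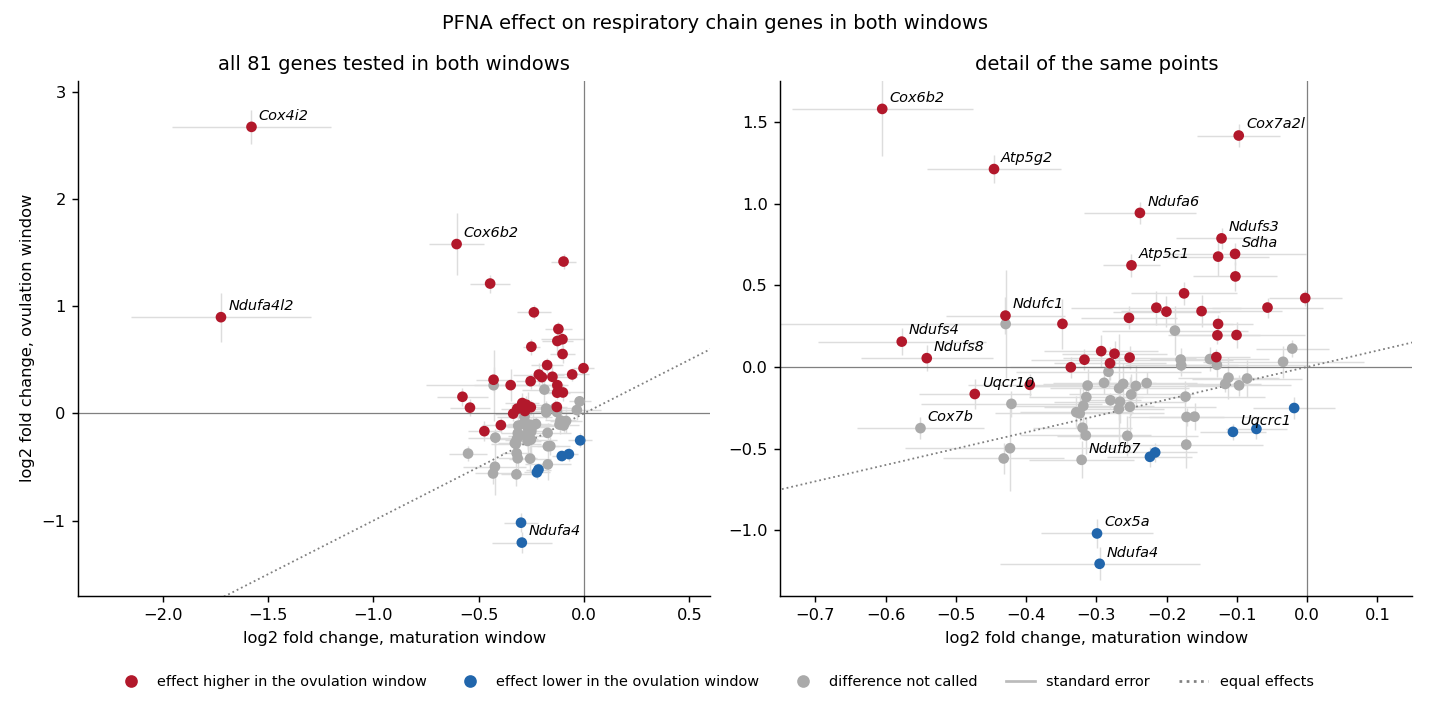
Log2 fold change of each member in the maturation window (x axis) against the ovulation window (y axis) with standard errors, for all 81 genes tested in both (left) and in detail (right). Red and blue points are genes whose effect was higher or lower in the ovulation window, grey points are not called, and the dotted line marks equal effects. Cox4i2 lies at -1.58 and 2.67, and Ndufa4 at -0.30 and -1.20.

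Complex I takes NADH at the tip of its matrix arm, where Ndufv1 and Ndufs1 carry flavin and iron-sulfur clusters, and passes electrons along the arm to ubiquinone. Ndufs8, an iron-sulfur subunit, was at 138 to 194 TPM (median 169) in the controls and 89.5 to 162 TPM (median 114) in the PFNA libraries in the maturation window, and 8 of 10 PFNA libraries lay below every control. Its log2 fold change was -0.54 ± 0.09 (SE, adjusted p = 0.00019) there and 0.05 ± 0.08 (SE, adjusted p = 0.56) in the ovulation window, and the effects differed by 0.59 ± 0.12 (SE, adjusted p = 5e-05).

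Ndufs3, another core subunit of the matrix arm, rose in the ovulation window. It was at 20.4 to 30.1 CPM (median 25.8) in the controls and 40.6 to 50.6 CPM (median 44.3) in the PFNA libraries, with all 11 PFNA libraries above every control and a log2 fold change of 0.79 ± 0.07 (SE, adjusted p = 7.7e-11). Its maturation value was -0.12 ± 0.06 (SE, adjusted p = 0.16), not called, and the effects differed by 0.89 ± 0.09 (SE, adjusted p = 1.5e-11). Ndufv1, which binds NADH, rose by 0.19 in the ovulation window (adjusted p = 0.0029) and had a log2 fold change of -0.13 ± 0.06 (SE, adjusted p = 0.12) in the maturation window. Ndufs1 passed the threshold in neither window, with log2 fold changes of -0.02 ± 0.05 (SE, adjusted p = 0.79) and 0.11 ± 0.05 (SE, adjusted p = 0.06).

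Among the accessory subunits of complex I, Ndufa6, of the LYR family on the matrix arm, rose in the ovulation window, with levels of 24.4 to 37.7 CPM (median 32.8) in the controls and 57.6 to 64.8 CPM (median 62.1) in the PFNA libraries. The groups did not overlap, and the log2 fold change was 0.94 ± 0.07 (SE, adjusted p = 2.7e-12). Its maturation levels were 153 to 213 TPM (median 188) in the controls and 127 to 213 TPM (median 152) in the PFNA libraries, with 5 of 10 PFNA libraries below every control and a log2 fold change of -0.24 ± 0.08 (SE, adjusted p = 0.029). That maturation call was lost without the mitochondrial-like copies and when any of PFNA replicates 3, 5, 6 or 7 was left out. The effects differed by 1.17 ± 0.10 (SE, adjusted p = 4.4e-13). Ndufc1, of the membrane arm, fell by 0.43 in the maturation window (adjusted p = 0.00065) and rose by 0.31 in the ovulation window (adjusted p = 0.017). Ndufb8, a membrane arm subunit often used as a protein marker of the complex, fell by 0.31 (adjusted p = 0.006) and by 0.18 (adjusted p = 0.024) in the maturation and ovulation windows, and with the oocyte covariate it was called in neither.

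Further members of complex I called lower in the maturation window included Ndufs4, Ndufs7, Ndufv2, Ndufa5, Ndufa7, Ndufa11, Ndufa12, Ndufb2 and Ndufb7, from -0.58 to -0.25 on the log2 scale. Of these, Ndufa5, Ndufa12 and Ndufb2 lost their calls without the mitochondrial-like copies, and Ndufa5 and Ndufa12 also without the filter and when any of 10 and 15 of the 21 libraries, respectively, was left out. Ndufa7, Ndufa10, Ndufb3, Ndufb4, Ndufb5, Ndufb11, Ndufc2 and Ndufs5 also rose in the ovulation window, from 0.30 to 0.68, and Ndufa1, Ndufa9, Ndufa11, Ndufb2, Ndufb6 and Ndufb7 fell, from -0.57 to -0.24. The ovulation call of Ndufb2 (adjusted p = 0.049) was lost with median-ratio size factors, with DESeq2, with the oocyte covariate and when any of 15 of the 23 libraries was left out. Reads of Ndufs5 and Ndufb4 may be shared with the rows Ndufs5-ps and Ndufb4c, and their values are uncertain for that reason. The sequences of these rows were not compared here. Ndufb4c is itself counted in the sums of complex I, which carry the same uncertainty.

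Ndufa4 and Ndufa4l2 carry complex I symbols, but Ndufa4 is known as a subunit of complex IV, and Ndufa4l2 is its paralogue, known as a target of hypoxia-inducible factor. Ndufa4l2 was the most abundant complex I member in maturation controls, at 221 to 527 TPM (median 343) in the controls and 21.2 to 334 TPM (median 132) in the PFNA libraries. Of the PFNA libraries, 7 of 10 lay below every control, replicates 7, 8 and 10 lowest, and the log2 fold change was -1.72 ± 0.43 (SE, adjusted p = 0.0045). Its levels in the ovulation window were 5.60 to 15.2 CPM (median 10.2) in the controls and 6.81 to 31.7 CPM (median 21.8) in the PFNA libraries, 7 of 11 PFNA libraries lay above every control, and the log2 fold change was 0.90 ± 0.23 (SE, adjusted p = 0.0011). The effects differed by 2.45 ± 0.48 (SE, adjusted p = 4.5e-05).

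Ndufa4 itself had the lowest log2 fold change of all members in the ovulation window. Its level was 34.0 to 47.8 CPM (median 42.5) in the controls and 13.1 to 27.3 CPM (median 16.9) in the PFNA libraries, with every PFNA library below every control and a log2 fold change of -1.20 ± 0.10 (SE, adjusted p = 8.2e-11). Its maturation levels were 38.0 to 66.7 TPM (median 48.6) in the controls and 22.2 to 61.6 TPM (median 39.9) in the PFNA libraries, the groups overlapped, and the value of -0.30 ± 0.14 (SE, adjusted p = 0.12) was not called, though it was called without PFNA replicate 10. Ndufa4l2 made up 76.8% to 93.1% (median 87.4%) in the controls and 30% to 93.8% (median 76%) in the PFNA libraries of the summed TPM of the pair in the maturation window. Its ovulation share, of CPM not scaled to length, was 11.8% to 28.5% (median 20.8%) in the controls and 23.7% to 65.6% (median 56.5%) in the PFNA libraries.

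**Figure D4:**
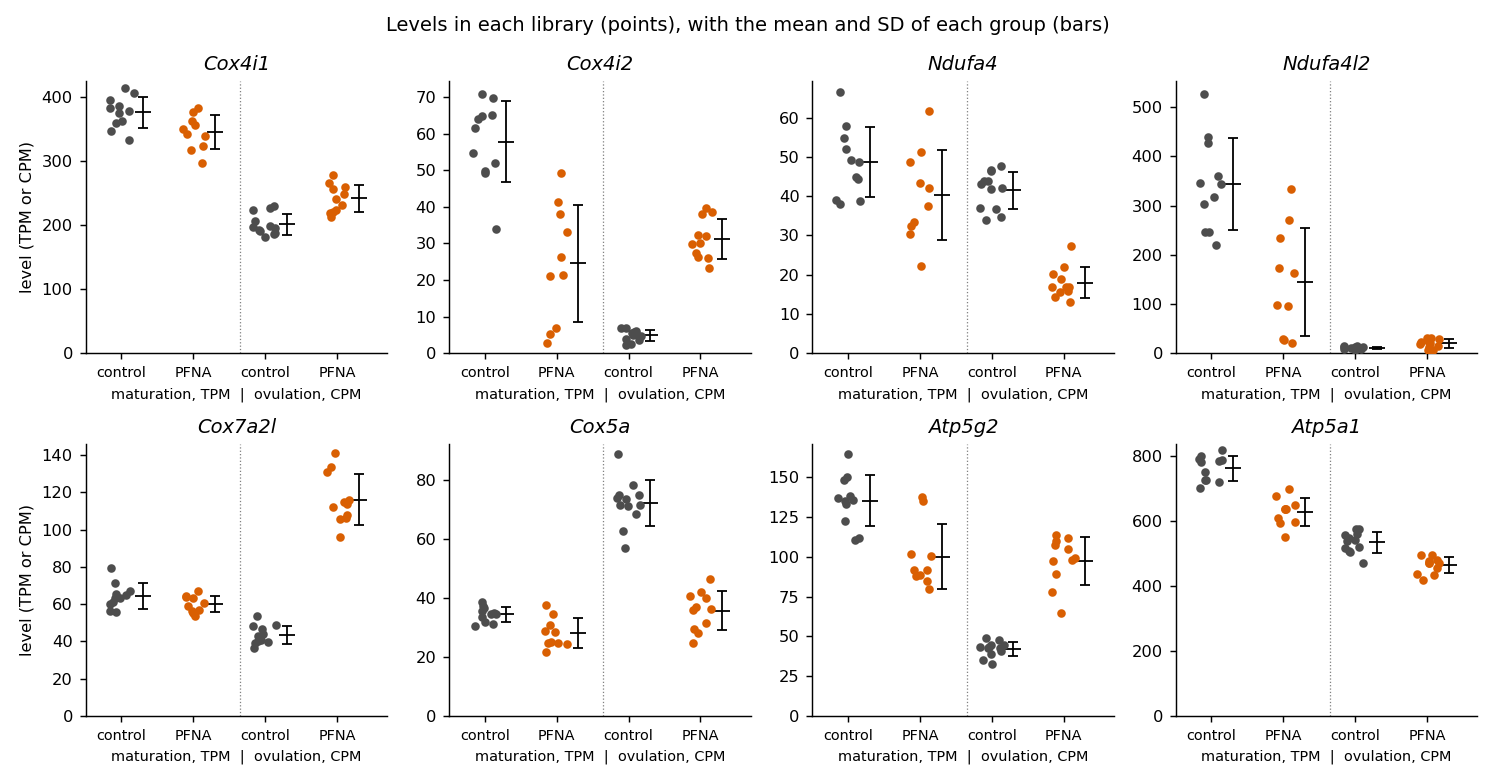
Level of 8 members in each library, in TPM for the maturation window (left of each panel) and CPM for the ovulation window (right of each panel), which are not comparable across the dotted line. Points are libraries, grey for controls and orange for PFNA, and bars are the mean and SD. Cox4i2 and Ndufa4l2 are lower with PFNA in the maturation window and higher in the ovulation window, while Cox7a2l and Atp5g2 show no overlap of the groups in the ovulation window.

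Complex II oxidises succinate in both the tricarboxylic acid cycle and the respiratory chain, and all its subunits are nuclear. Sdha, the flavoprotein that binds succinate, was at 78.1 to 119 CPM (median 95.4) in the controls and 137 to 189.6 CPM (median 158) in the PFNA libraries in the ovulation window, without overlap, and rose with a log2 fold change of 0.69 ± 0.07 (SE, adjusted p = 1.9e-09). It had a maturation log2 fold change of -0.10 ± 0.10 (SE, adjusted p = 0.47), not called, and the effects differed by 0.79 ± 0.12 (SE, adjusted p = 4.9e-07). Sdhb, which holds the iron-sulfur clusters, fell in the maturation window, with levels of 30.3 to 44.5 TPM (median 36.5) in the controls and 24.8 to 38.3 TPM (median 30.6) in the PFNA libraries, with a log2 fold change of -0.27 ± 0.07 (SE, adjusted p = 0.0081). It was not called in the ovulation window, with a log2 fold change of 0.08 ± 0.08 (SE, adjusted p = 0.35).

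The membrane anchors of complex II moved apart. Sdhc rose in the ovulation window with a log2 fold change of 0.36 ± 0.06 (SE, adjusted p = 8.5e-06), with 10 of 11 PFNA libraries above every control, and had a log2 fold change of -0.06 ± 0.08 (SE, adjusted p = 0.63) in the maturation window. Sdhd, the most abundant complex II member in maturation controls, fell in the maturation window by 0.22 (adjusted p = 0.0097, a call lost without the mitochondrial-like copies). Sdhd was at 67.1 to 95.7 CPM (median 73.7) in the controls and 43.8 to 56.9 CPM (median 54.4) in the PFNA libraries in the ovulation window, without overlap, and fell by 0.52 (adjusted p = 1.9e-08). Its effects differed by -0.30 ± 0.08 (SE, adjusted p = 0.002).

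Complex III passes electrons from ubiquinol to cytochrome c through the Rieske protein Uqcrfs1, held by the core proteins Uqcrc1 and Uqcrc2. Uqcrc1 was at 100.05 to 130.3 CPM (median 122) in the controls and 80.9 to 103 CPM (median 89.7) in the PFNA libraries in the ovulation window, with 10 of 11 PFNA libraries below every control and a log2 fold change of -0.40 ± 0.05 (SE, adjusted p = 1.3e-07). Uqcrfs1 was at 97.1 to 132 CPM (median 111) in the controls and 67.0 to 100.4 CPM (median 87.4) in the PFNA libraries, also with 10 of 11 below every control, with a log2 fold change of -0.38 ± 0.06 (SE, adjusted p = 4.5e-06). Neither was called in the maturation window, where Uqcrc1 had a log2 fold change of -0.11 ± 0.05 (SE, adjusted p = 0.097) and Uqcrfs1 one of -0.07 ± 0.04 (SE, adjusted p = 0.22), and the effects differed by -0.29 ± 0.07 (SE, adjusted p = 0.00034) and -0.30 ± 0.07 (SE, adjusted p = 0.00043). Uqcrc2 had a log2 fold change of -0.13 ± 0.05 (SE, adjusted p = 0.047) in the maturation window and 0.06 ± 0.05 (SE, adjusted p = 0.28) in the ovulation window. The maturation call of Uqcrc2 was lost when any of 16 of the 21 libraries was left out and without the mitochondrial-like copies, and its log2 fold change was at 0 to 2 decimals with the oocyte covariate.

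Of the 5 complex III members that fell in the maturation window, 4 encode small subunits. Uqcr10 was at 201 to 240.3 TPM (median 212) in the controls and 130.4 to 213 TPM (median 142) in the PFNA libraries, with 9 of 10 PFNA libraries below every control and PFNA replicate 2 inside their range, with a log2 fold change of -0.47 ± 0.08 (SE, adjusted p = 0.00015). Uqcrq, the most abundant complex III member in maturation controls, was at 372 to 532 TPM (median 427) in the controls and 199 to 553 TPM (median 309) in the PFNA libraries, with PFNA replicate 2 above every control and 7 below, with a log2 fold change of -0.42 ± 0.13 (SE, adjusted p = 0.018). Uqcrh, the acidic hinge protein, fell by 0.23 (adjusted p = 0.021, a call lost without the mitochondrial-like copies), and Uqcr11 fell by 0.32 (adjusted p = 0.047). The Uqcr11 call was lost when any of 14 of the 21 libraries was left out, without the mitochondrial-like copies, without the filter and with median-ratio size factors. Uqcrq fell in the ovulation window too, by 0.23 (adjusted p = 0.015), while Uqcr10, Uqcrh and Uqcr11 were not called, at -0.17, -0.10 and -0.28. Uqcrb was called in neither window.

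Complex IV, cytochrome c oxidase, has several nuclear subunits with tissue isoforms. Cox4i2, the hypoxia-responsive isoform of subunit 4, changed most among the complex IV members called in both windows. It was at 34.0 to 70.9 TPM (median 61.5) in the controls and 2.83 to 49.3 TPM (median 23.9) in the PFNA libraries in the maturation window, where 7 of 10 PFNA libraries lay below every control and replicates 7, 8 and 10 were lowest, with a log2 fold change of -1.58 ± 0.38 (SE, adjusted p = 0.0034). Its ovulation levels were 2.38 to 6.93 CPM (median 5.23) in the controls and 23.3 to 39.5 CPM (median 30.0) in the PFNA libraries, without overlap, with a log2 fold change of 2.67 ± 0.16 (SE, adjusted p = 1.9e-13). The effects differed by 4.07 ± 0.40 (SE, adjusted p = 9.9e-10). Smooth muscle markers, given above, were also higher with PFNA in the ovulation window, and their part in the rise of Cox4i2 and Ndufa4l2 was not tested.

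The ubiquitous isoform Cox4i1 moved less. It was not called in the maturation window, with a log2 fold change of -0.13 ± 0.05 (SE, adjusted p = 0.057), and became called when any of control replicates 1 and 6 or PFNA replicates 2, 7 and 8 was left out. Its ovulation levels were 182 to 229 CPM (median 196) in the controls and 212 to 278 CPM (median 240.1) in the PFNA libraries, with 7 of 11 PFNA libraries above every control, and it rose with a log2 fold change of 0.26 ± 0.06 (SE, adjusted p = 0.00017). Cox4i2 made up 7.74% to 16.4% (median 13.8%) in the controls and 0.788% to 14.2% (median 6.95%) in the PFNA libraries of the summed TPM of both isoforms in the maturation window. Its share of their summed CPM in the ovulation window was 1.14% to 3.55% (median 2.51%) in the controls and 7.73% to 15% (median 11%) in the PFNA libraries, without overlap.

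Cox6a2, the isoform of heart and skeletal muscle, was the 1 member that rose in the maturation window. It was listed at 0 in 8 of 11 controls, which reached 3.41 TPM at most, and at 0 to 24.1 TPM (median 5.58) in the PFNA libraries, 7 of which lay above every control while replicate 10 was at 0. It passed the filter through the PFNA libraries alone, so a difference was built into its selection, and the log2 fold change was 2.20 ± 0.41 (SE, adjusted p = 0.00044). It had too few ovulation counts to be tested, at up to 0.187 CPM in the controls and 1.13 CPM in the PFNA libraries. The ubiquitous isoform Cox6a1, the most abundant complex IV member in maturation controls, was called in neither window, with log2 fold changes of -0.18 ± 0.08 (SE, adjusted p = 0.099) and 0.01 ± 0.06 (SE, adjusted p = 0.9). Cox6a2 made up at most 5.35% of the summed TPM of the pair in any library.

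Cox6b2, the isoform of testis, fell in the maturation window, with levels of 16.1 to 30.9 TPM (median 24.2) in the controls and 9.67 to 23.6 TPM (median 15.2) in the PFNA libraries, with a log2 fold change of -0.60 ± 0.13 (SE, adjusted p = 0.0014). It rose in the ovulation window at low levels of 0.299 to 2.31 CPM (median 0.846) in the controls and 1.17 to 5.12 CPM (median 3.11) in the PFNA libraries, with a log2 fold change of 1.58 ± 0.29 (SE, adjusted p = 2.4e-05). At these control levels it may have passed the count filter through the PFNA libraries alone, which would build a difference into its selection. Cox6b1, its ubiquitous counterpart, fell in both windows, by 0.33 (adjusted p = 0.004) and by 0.28 (adjusted p = 0.012). Cox7a1, the muscle isoform of subunit 7a, was called in neither window, with log2 fold changes of -0.43 ± 0.32 (SE, adjusted p = 0.34) and 0.26 ± 0.33 (SE, adjusted p = 0.48). Cox7a2, its ubiquitous counterpart, fell in the maturation window by 0.39 (adjusted p = 0.0021) and was at -0.11 in the ovulation window (adjusted p = 0.15).

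Cox7a2l, known as a factor that joins complexes III and IV into supercomplexes, had the smallest p among the members in the ovulation window. It was at 36.5 to 53.6 CPM (median 42.1) in the controls and 96.2 to 141 CPM (median 114) in the PFNA libraries, so that the lowest PFNA library lay above the highest control, and its log2 fold change was 1.42 ± 0.07 (SE, adjusted p = 5.2e-15). Its maturation levels were 55.5 to 79.6 TPM (median 63.6) in the controls and 53.8 to 67.0 TPM (median 59.8) in the PFNA libraries, the groups overlapped, and the value of -0.10 ± 0.06 (SE, adjusted p = 0.22) was not called. The effects differed by 1.49 ± 0.09 (SE, adjusted p = 1.1e-18). Cox5a, a matrix-side subunit, moved the other way. It was at 56.9 to 89.1 CPM (median 72.6) in the controls and 24.9 to 46.5 CPM (median 36.2) in the PFNA libraries in the ovulation window, without overlap, with a log2 fold change of -1.02 ± 0.09 (SE, adjusted p = 2.4e-10). It fell in the maturation window by 0.30 (adjusted p = 0.0072), and the effects differed by -0.72 ± 0.12 (SE, adjusted p = 1.1e-06).

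Cox7b fell in both windows. Its maturation levels were 79.3 to 122 TPM (median 94.6) in the controls and 52.0 to 80.5 TPM (median 68.0) in the PFNA libraries, with 9 of 10 PFNA libraries below every control, with a log2 fold change of -0.55 ± 0.09 (SE, adjusted p = 0.00012). Its ovulation log2 fold change was -0.37 ± 0.07 (SE, adjusted p = 1.6e-05). Cox8a fell in the maturation window by 0.25 (adjusted p = 0.048), close to the threshold: the call was lost when any of 14 of the 21 libraries was left out, without the filter, with median-ratio size factors and without the mitochondrial-like copies. Cox7c rose in the ovulation window by 0.20 (adjusted p = 0.025), a call lost without the filter and without PFNA replicate 6, and Cox5b and Cox6c were called in neither window.

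Complex V makes ATP in a head of alpha and beta subunits, Atp5a1 and Atp5b. Inside the head turns a central stalk with the gamma and delta subunits Atp5c1 and Atp5d, on a membrane ring of c subunits. Atp5a1 was at 702 to 819 TPM (median 783) in the controls and 550.0 to 698 TPM (median 637) in the PFNA libraries in the maturation window, where every PFNA library lay below every control, with a log2 fold change of -0.28 ± 0.04 (SE, adjusted p = 7.2e-05). Its ovulation levels were 472 to 577 CPM (median 542) in the controls and 420.4 to 496 CPM (median 470.4) in the PFNA libraries, with 7 of 11 below every control, with a log2 fold change of -0.20 ± 0.05 (SE, adjusted p = 0.0004). Atp5b was called in neither window, with log2 fold changes of -0.12 ± 0.05 (SE, adjusted p = 0.093) and -0.10 ± 0.05 (SE, adjusted p = 0.06). Its maturation value became a call without PFNA replicate 8, and its ovulation value without control replicates 7 or 12 or PFNA replicate 6.

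Atp5c1 fell in the maturation window and rose in the ovulation window. It was at 59.7 to 67.0 TPM (median 65.6) in the controls and 48.3 to 59.8 TPM (median 53.8) in the PFNA libraries in the maturation window, with 9 of 10 PFNA libraries below every control, with a log2 fold change of -0.25 ± 0.04 (SE, adjusted p = 0.00012). Its ovulation levels were 53.9 to 88.3 CPM (median 69.9) in the controls and 95.2 to 125 CPM (median 111) in the PFNA libraries, without overlap, with a log2 fold change of 0.62 ± 0.07 (SE, adjusted p = 2.7e-08), and the effects differed by 0.87 ± 0.08 (SE, adjusted p = 8e-12). Atp5d fell in both windows, with log2 fold changes of -0.32 ± 0.07 (SE, adjusted p = 0.0018) and -0.37 ± 0.06 (SE, adjusted p = 8.4e-06). Atp5pb, of the peripheral stalk, fell by 0.17 in the maturation window (adjusted p = 0.019, a call lost without the mitochondrial-like copies) and by 0.31 in the ovulation window (adjusted p = 1.7e-05).

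The c subunit is encoded by Atp5g1, Atp5g2 and Atp5g3, which differ in their import sequences and give the same mature protein. Atp5g3 was the most abundant member of all in maturation controls, at 975 to 1393 TPM (median 1203) in the controls, and was called in neither window, with log2 fold changes of -0.10 ± 0.07 (SE, adjusted p = 0.34) and -0.11 ± 0.06 (SE, adjusted p = 0.12). Atp5g2 fell in the maturation window, with levels of 111 to 164 TPM (median 136) in the controls and 79.7 to 138 TPM (median 91.6) in the PFNA libraries, with replicates 1 and 2 inside the range of the controls and the other 8 below it, with a log2 fold change of -0.45 ± 0.09 (SE, adjusted p = 0.0013). Atp5g2 was at 32.8 to 48.8 CPM (median 43.0) in the controls and 64.8 to 113 CPM (median 98.9) in the PFNA libraries in the ovulation window, without overlap, with a log2 fold change of 1.21 ± 0.08 (SE, adjusted p = 2.3e-12), and the effects differed by 1.63 ± 0.13 (SE, adjusted p = 6.9e-15). Atp5g1 had a log2 fold change of -0.26 ± 0.10 (SE, adjusted p = 0.06) in the maturation window, not called, and fell in the ovulation window at -0.42 ± 0.12 (SE, adjusted p = 0.003).

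Atp5g2 thus made up a larger part of the c subunit transcripts in PFNA libraries of the ovulation window. Its share of their summed CPM was 12.3% to 19.8% (median 16.6%) in the controls and 28.3% to 39.2% (median 33.5%) in the PFNA libraries. Its maturation share of summed TPM was 7.22% to 12.7% (median 10.5%) in the controls and 6.09% to 12% (median 7.47%) in the PFNA libraries. The other complex V members called lower in the maturation window were Atp5h, Atp5j, Atp5j2, Atp5k, Atp5l, Atp5md, Atp5mpl and Atp5o, from -0.42 to -0.25, and of these Atp5md and Atp5o also fell in the ovulation window. The calls of Atp5k and Atp5mpl were lost without the mitochondrial-like copies, without the filter and when any of 10 and 11 of the 21 libraries, respectively, was left out, and that of Atp5mpl also with median-ratio size factors. Atp5e was called in neither window. The maturation table gave Atp5o a span of chr16:91684398-91931687 and 4.89 TPM in controls on average, and the ovulation table gave it chr16:91925223-91931630 and 84.3 CPM, so its maturation value rests on another gene model.

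The PFNA libraries of the maturation window differed in how many members lay outside the controls. Of 83 members, replicate 5 had 70 below every control, replicate 4 had 61, replicate 10 had 57, replicate 6 had 53, replicate 3 had 48, replicate 9 had 40 and replicate 7 had 31. Replicates 8, 1 and 2 had 22, 14 and 6, and replicate 2 had 12 above every control. Replicates 1 and 2 were among the 3 libraries that held oocyte markers, while the other, replicate 10, had many members below the controls. The mitochondrial-like share was lowest in replicates 2 and 1, at 21.2% and 22.4%, inside the range of the controls, and 24.8% to 27.7% in the other 8. Each PFNA library of the ovulation window had 11 to 28 of 82 members below and 14 to 25 above every control. Such counts were not made over all genes in either window. Whether members lay outside the controls more often than other genes was therefore not tested.

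**Figure D5:**
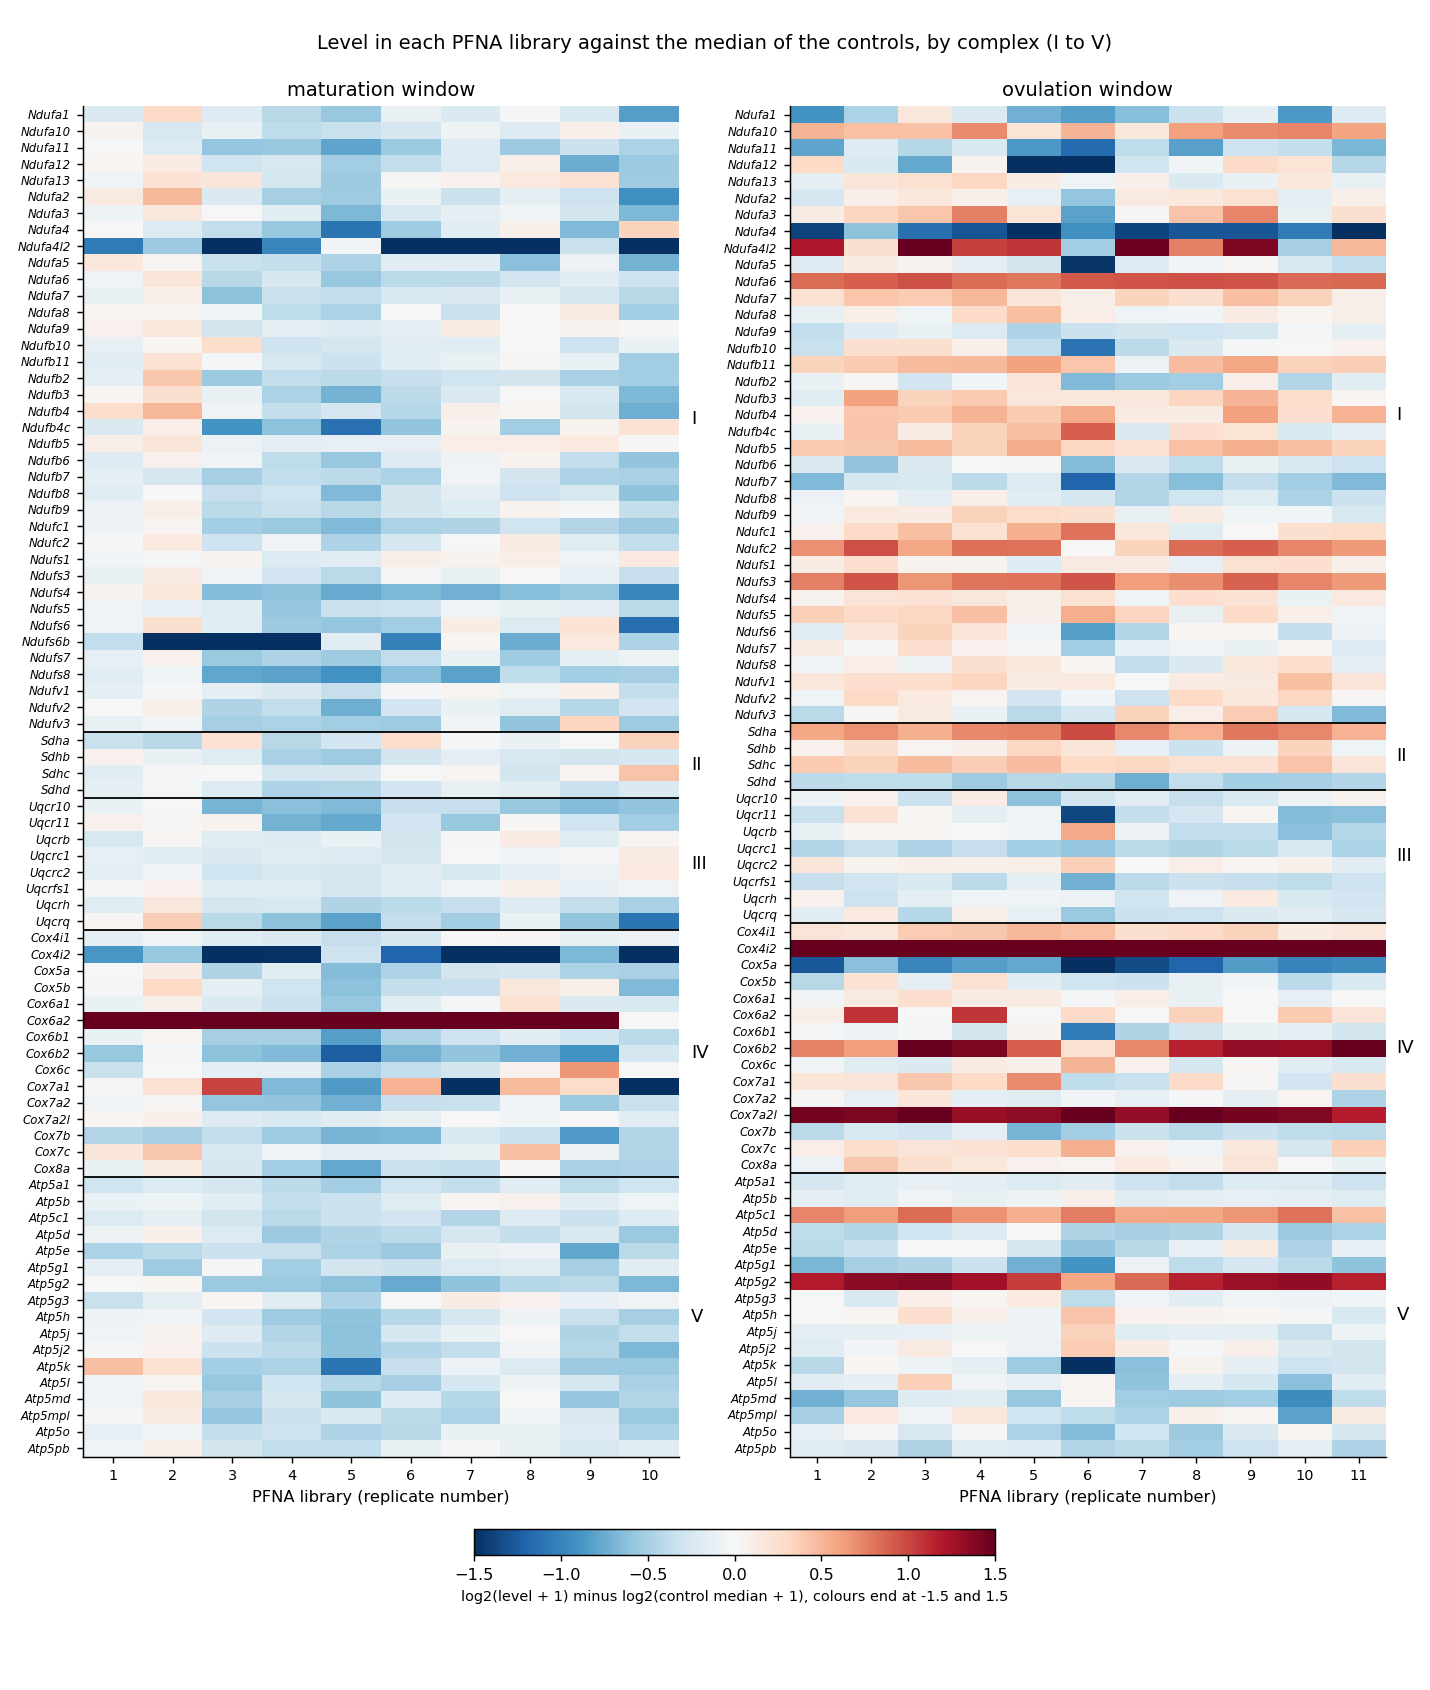
Difference of the members reported here (rows, ordered by complex I to V) from the median of the controls in each PFNA library (columns), as log2(level + 1), in the maturation window (left, TPM) and the ovulation window (right, CPM). Blue is lower, red is higher, and colours end at -1.5 and 1.5. Counts are of members only, with no count over all genes beside them. Columns 1, 2 and 8 of the maturation window hold 14, 6 and 22 members below every control and the other columns 31 to 70, and in the ovulation window rows such as Cox4i2, Cox7a2l, Atp5g2, Ndufa6 and Ndufa4 keep their colour across all 11 libraries.

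Genes that serve the chain were described from lists by role, with the share called beside that of all genes tested, which was 13.3% higher and 16.1% lower in the maturation window and 38.0% higher and 35.2% lower in the ovulation window. Assembly factors of complex I had 0 of 13 higher (0%) and 2 lower (15.4%, median log2 fold change -0.10) in the maturation window and 5 of 16 higher (31.2%) and 5 lower (31.2%, median log2 fold change 0.01) in the ovulation window. Nubpl, which delivers iron-sulfur clusters to complex I, was at 0.591 to 3.06 CPM (median 1.37) in the controls and 4.61 to 8.54 CPM (median 6.95) in the PFNA libraries in the ovulation window, with a log2 fold change of 2.22 ± 0.22 (SE, adjusted p = 1.3e-09). Ndufaf3 had the smallest p of the list in the maturation window, with a log2 fold change of -0.32 ± 0.10 (SE, adjusted p = 0.018). Assembly factors of complexes II to V had 1 of 30 higher (3.3%) and 4 lower (13.3%, median log2 fold change -0.12) in the maturation window and 9 of 32 higher (28.1%) and 16 lower (50%, median log2 fold change -0.28) in the ovulation window. Their smallest p were those of Tmem70, an assembly factor of complex V, with a log2 fold change of -0.29 ± 0.08 (SE, adjusted p = 0.0064) in the maturation window, and of Coa7, of complex IV, with a log2 fold change of -1.38 ± 0.11 (SE, adjusted p = 4.9e-11) in the ovulation window.

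Carriers and partners of the chain had 0 of 15 higher (0%) and 4 lower (26.7%, median log2 fold change -0.06) in the maturation window and 5 of 15 higher (33.3%) and 6 lower (40%, median log2 fold change -0.02) in the ovulation window. Cycs, cytochrome c, was at 237 to 302 TPM (median 266) in the controls and 145 to 232 TPM (median 171) in the PFNA libraries in the maturation window, with a log2 fold change of -0.62 ± 0.08 (SE, adjusted p = 1.1e-05), and fell in the ovulation window as well, with a log2 fold change of -0.55 ± 0.09 (SE, adjusted p = 3.1e-06). Etfdh, which passes electrons from fatty acid oxidation to ubiquinone, was at 29.4 to 46.0 CPM (median 35.1) in the controls and 136 to 212 CPM (median 159.7) in the PFNA libraries in the ovulation window, without overlap, with a log2 fold change of 2.23 ± 0.08 (SE, adjusted p = 2.1e-17). Regulators of mitochondrial gene expression had 1 of 16 higher (6.2%) and 0 lower (0%, median log2 fold change 0.03) in the maturation window and 6 of 18 higher (33.3%) and 7 lower (38.9%, median log2 fold change -0.13) in the ovulation window. Polg2, of the mitochondrial DNA polymerase, had a log2 fold change of 0.30 ± 0.11 (SE, adjusted p = 0.041) in the maturation window. Nrf1, a transcription factor of many respiratory chain genes, was at 50.6 to 63.3 CPM (median 55.9) in the controls and 25.3 to 32.0 CPM (median 29.9) in the PFNA libraries in the ovulation window, without overlap, with a log2 fold change of -0.95 ± 0.05 (SE, adjusted p = 2.1e-14).

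Promoters were read for members called in the ovulation window, in both directions, since Nrf1 and ETS-family factors are known regulators of respiratory chain genes. RefSeq windows on GRCm38.p6 were found for 66 of 83 members. The 250 bases before the annotated start, 5′ to 3′ on the gene's strand, are shown for the 3 called members with the highest log2 fold change and the 3 with the lowest, among those with a window and a mean of at least 10 CPM in a group, with matches to the motifs GCATGCGC (Nrf1) and CCGGAAG (ETS family), on either strand, in capitals. In the Atp5g2 window a match on each strand overlaps the other. The ends of 62 of 71 member windows were found in a reference transcript of the gene, but not those of Atp5g2 and Cox5a. In the maturation gene models Atp5g2 reaches chr15:102672352 and Cox7a2l reaches chr17:83517330, so their printed stretches lie inside those spans.
Cox7a2l, chr17:83514334-83514583, minus strand: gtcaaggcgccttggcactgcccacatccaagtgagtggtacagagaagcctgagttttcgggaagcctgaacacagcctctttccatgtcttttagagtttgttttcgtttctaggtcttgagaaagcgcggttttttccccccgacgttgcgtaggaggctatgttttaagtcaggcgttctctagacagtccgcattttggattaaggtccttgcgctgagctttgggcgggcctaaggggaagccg
Atp5g2, chr15:102671048-102671297, minus strand: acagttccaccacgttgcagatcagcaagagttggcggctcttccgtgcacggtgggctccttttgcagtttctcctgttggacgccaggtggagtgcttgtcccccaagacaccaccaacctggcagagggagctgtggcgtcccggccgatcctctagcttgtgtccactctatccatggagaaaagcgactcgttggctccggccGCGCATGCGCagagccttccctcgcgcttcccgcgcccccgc
Ndufa6, chr15:82354292-82354541, minus strand: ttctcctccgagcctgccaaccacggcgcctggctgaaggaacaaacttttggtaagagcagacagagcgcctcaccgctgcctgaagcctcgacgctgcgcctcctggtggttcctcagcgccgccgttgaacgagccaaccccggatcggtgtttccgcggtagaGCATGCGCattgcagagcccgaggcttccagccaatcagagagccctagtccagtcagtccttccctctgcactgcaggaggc
Ndufa4, chr6:11907451-11907700, minus strand: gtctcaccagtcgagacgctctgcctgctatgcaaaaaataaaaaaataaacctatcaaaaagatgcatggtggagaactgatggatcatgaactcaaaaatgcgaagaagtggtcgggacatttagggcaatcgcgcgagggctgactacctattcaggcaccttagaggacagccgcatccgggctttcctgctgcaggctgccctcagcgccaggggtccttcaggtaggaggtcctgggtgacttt
Cox5a, chr9:57520982-57521231, plus strand: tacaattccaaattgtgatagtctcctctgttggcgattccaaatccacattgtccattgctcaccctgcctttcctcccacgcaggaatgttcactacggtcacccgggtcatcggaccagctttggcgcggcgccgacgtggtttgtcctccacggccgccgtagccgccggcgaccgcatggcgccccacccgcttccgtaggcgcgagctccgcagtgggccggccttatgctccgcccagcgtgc
Ndufb7, chr8:83566508-83566757, plus strand: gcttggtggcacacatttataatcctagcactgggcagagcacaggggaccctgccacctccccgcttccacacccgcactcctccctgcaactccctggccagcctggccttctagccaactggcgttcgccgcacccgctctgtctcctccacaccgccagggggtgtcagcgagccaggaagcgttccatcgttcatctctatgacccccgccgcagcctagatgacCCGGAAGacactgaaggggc

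The Nrf1 motif was in the windows of Atp5g2 and Ndufa6, both of which rose, the ETS motif was in that of Ndufb7, which fell, and neither was in those of Cox7a2l, Ndufa4 and Cox5a. Over all members with a window, the Nrf1 motif was in 8 of 66 (12.1%) and the ETS motif in 12 (18.2%). Among the genes tested in the ovulation window that had a RefSeq window, the shares were 4.98% and 14.9% of 10618. The motif TCAAGGTCA of the estrogen-related receptors was in 1 of 66 members (1.52%) and 0.292% of the genes tested. By ovulation call, the Nrf1 motif was in 2 of 18 members that rose, 1 of 19 that fell and 5 of 29 not called, and the ETS motif in 1, 4 and 7 of them. These counts describe letters in a window and name no bound site.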

How the data were processed

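RNA was poly(A)-selected and primed with random hexamers, per the labels' protocols. The submitters' processing notes name Partek, Bowtie2 and HISAT2, with no version or role, and strand, annotation and build are not given in the sources used here, so overlapping and antisense genes cannot be told apart. The deposited values of the maturation window are labelled raw counts but were taken as TPM, since each library sums to the same total and 83.5% of values are not whole. These 2 traits alone do not show the scaling to transcript length. Those of the ovulation window are estimated counts (expected counts) as deposited, 18.5% not whole, and were rounded. The maturation column CN6 was taken as control replicate 6, and control replicate 4 was not analysed here. Maturation values were tested with limma 3.58.1 (trend, robust) on log2(TPM + 1) keeping genes that average 1 TPM or more, and ovulation counts with edgeR 4.0.16 (filterByExpr, TMM, robust quasi-likelihood), in R 4.3.3. Differences between windows were tested as limma effects on log2(CPM + 1) minus log2(TPM + 1) with Satterthwaite degrees of freedom. Adjustment was Benjamini-Hochberg over all genes, at 0.05, and tests were two-sided. Mitochondrial-like copies were found with BLAST 2.17.0 (at least 90% identity over 50% of the transcript). Scripts were tested on simulated data. The depth of the maturation libraries is unknown. Within groups, ovulation libraries differed by more than sampling noise (chi-square per degree of freedom 7.22 or more), and maturation libraries correlated at 0.9733 or less. DESeq2 1.42.0, other normalizations, filters and pseudocounts, and leaving out libraries were tried as alternatives. Members and lists were chosen with earlier results of these data known. Named members were, for each window and complex, the 2 raised and the 2 lowered calls of smallest p that averaged 10 or more (TPM or CPM) in a group, the member of each complex with the highest maturation control mean, a fixed panel of core subunits and isoforms, the 3 with the smallest p for a higher and a lower effect between windows, the 3 with the largest change per window, and the smallest p of each other list. Other members named are called members given for completeness, and values of 1 member are not reported here.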

Additional observations from a re-analysis of the deposited data

Results flagged for a closer look

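The PFNA effect differed between the windows for 41 of 81 members, by the test of the difference itself. Only members named by the rule above or called in opposite directions are listed, with the ovulation effect minus the maturation effect on the log2 scale. Over every member of complexes I to V, the effect was higher in the ovulation window for 18, 3, 2, 7 and 4 and lower for 3, 1, 2, 1 and 0. In complex I it was higher in the ovulation window for Ndufa4l2 (2.45), Ndufa6 (1.17), Ndufs3 (0.89), Ndufc1 (0.72), Ndufs8 (0.59), Ndufa7 (0.55) and Ndufv1 (0.32), and lower for Ndufa4 (-0.88). In complex II it was higher for Sdha (0.79), Sdhc (0.41) and Sdhb (0.35) and lower for Sdhd (-0.30). In complex III it was higher for Uqcr10 (0.31) and Uqcrc2 (0.19) and lower for Uqcrc1 (-0.29) and Uqcrfs1 (-0.30). In complex IV it was higher for Cox4i2 (4.07), Cox6b2 (1.59), Cox7a2l (1.49), Cox4i1 (0.39), Cox8a (0.31) and Cox7a2 (0.29) and lower for Cox5a (-0.72). In complex V it was higher for Atp5g2 (1.63) and Atp5c1 (0.87). The windows also differ in normalization, gene models and the presence of hCG, which cannot be told apart from the window.

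For 4 of 47 values searched over the 10 maturation PFNA libraries, 1 library lay apart from the others by Dixon's criterion, where chance gives about 2.4. Cox6a2 was at 24.1 TPM in maturation PFNA replicate 5, against 11.3 TPM in the next library. Sdhc was at 27.6 TPM in PFNA replicate 10, against 20.9 TPM, and Uqcrc2 was at 56.4 TPM in the same library, against 49.1 TPM. Uqcrh was at 129 TPM in PFNA replicate 2, against 100.8 TPM. Replicates 10 and 2 are among the 3 PFNA libraries that held oocyte markers.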

How the results depend on the processing

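With the oocyte marker share as a covariate, 2 members were called in the maturation window, 0 higher and 2 lower, and the log2 fold change of Uqcrc2, maturation window, changed sign to 8.814e-05. The covariate is largely confounded with PFNA in that window, and the cause was not tested. Without the mitochondrial-like copies, the maturation ratios of summed levels of complexes I to V all rose, to 0.844, 0.941, 0.88, 0.919 and 0.924, a move larger than the relative SD of the controls for complex V and smaller for the others. The ovulation ratio of complex II moved to 0.933 without Sdha. Every count of called members stayed within 1.5 times its main value under the other alternatives run apart from the replicate block, including another pseudocount, no filter, median-ratio size factors, DESeq2 and each library left out in turn. Ovulation calls were 21 to 24 higher and 21 to 24 lower under all of them. Ovulation values without the mitochondrial-like copies were not run, since that table has none of them. The choice to leave out PFNA replicates 1, 2 and 10 and the sequence match for the copies were made after seeing the data. The depth of the maturation libraries is unknown, so no limit from counting error can be given there.

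Groups of a window share replicate numbers, but same-numbered libraries did not deviate together: over 9 pairs in the maturation window the correlations were -0.138 to 0.168, with 1 over 0.1, and over 11 pairs in the ovulation window -0.193 to 0.073, with 0 over 0.1. With the replicate block, 25 members were called in the maturation window, 24 of them lower, on fewer libraries. Of all genes tested, 7.55% were higher and 13.5% lower with the block. In complexes I and II the calls lost with it were those of Ndufa5, Ndufa6, Ndufa7, Ndufa12, Ndufb2, Ndufs7, Ndufv2, Sdhb and Sdhd. In complexes III to V they were those of Uqcr11, Uqcrc2, Uqcrh, Uqcrq, Cox5a, Cox8a, Atp5k, Atp5mpl and Atp5pb. In the ovulation window the block ended the call of Cox7c. Ovulation calls were 21 higher and 22 lower with the block, against 34.8% and 34.7% of all genes tested. The effect between windows was higher for 28 and lower for 7, against 31.5% and 33.4%.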

Other observations

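Genes that feed electrons to the chain and guard against its by-products were also measured, in windows where 13.3% and 16.1% (maturation) and 38.0% and 35.2% (ovulation) of all genes tested were called higher and lower. Enzymes of the tricarboxylic acid cycle had 2 of 18 higher (11.1%) and 3 lower (16.7%, median log2 fold change -0.05) in the maturation window and 8 of 18 higher (44.4%) and 8 lower (44.4%, median log2 fold change -0.06) in the ovulation window. Mdh2, mitochondrial malate dehydrogenase, was at 172 to 204 TPM (median 188) in the controls and 134 to 176 TPM (median 144) in the PFNA libraries of the maturation window, and fell with a log2 fold change of -0.33 ± 0.05 (SE, adjusted p = 9.1e-05). Idh3g, a subunit of the NAD-dependent isocitrate dehydrogenase, was at 36.1 to 52.1 CPM (median 43.9) in the controls and 56.4 to 84.1 CPM (median 71.9) in the PFNA libraries of the ovulation window, without overlap, and rose with a log2 fold change of 0.70 ± 0.06 (SE, adjusted p = 5.4e-10). Genes of ubiquinone synthesis had 1 of 11 higher (9.1%) and 4 lower (36.4%, median log2 fold change -0.11) in the maturation window, where Coq10a, a ubiquinone-binding protein, fell with a log2 fold change of -0.56 ± 0.09 (SE, adjusted p = 8.9e-05). Their ovulation counts were 6 of 13 higher (46.2%) and 3 lower (23.1%, median log2 fold change 0.08), and Coq8a, a kinase-like protein of ubiquinone synthesis, was at 0 to 1.45 CPM (median 0.757) in the controls and 3.59 to 7.68 CPM (median 5.50) in the PFNA libraries, without overlap, with a log2 fold change of 2.88 ± 0.34 (SE, adjusted p = 3.3e-08). Coq8a may have passed the count filter through the PFNA libraries alone, which would build a difference into its selection.

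Genes of uncoupling and oxidant defence had 3 of 13 higher (23.1%) and 4 lower (30.8%, median log2 fold change -0.14) in the maturation window and 7 of 13 higher (53.8%) and 3 lower (23.1%, median log2 fold change 0.21) in the ovulation window. Gpx4, which reduces lipid peroxides, was at 196 to 256 TPM (median 234) in the controls and 91.1 to 205 TPM (median 117) in the PFNA libraries of the maturation window, and fell with a log2 fold change of -0.87 ± 0.12 (SE, adjusted p = 1.9e-05). Nnt, the mitochondrial transhydrogenase that makes NADPH, was at 15.4 to 31.2 CPM (median 23.1) in the controls and 48.4 to 73.5 CPM (median 56.4) in the PFNA libraries of the ovulation window, without overlap, and rose with a log2 fold change of 1.35 ± 0.10 (SE, adjusted p = 5.7e-12). Of the rows marked -ps and left out of the members, Ndufb1-ps was the most abundant in the maturation table, at 12.5 to 22.2 TPM (median 16.6) in the controls and 10.8 to 17.9 TPM (median 13.6) in the PFNA libraries.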
